A study of Danio rerio with 6 samples.

Results

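Kpna2, ipo4 and ccnb1 are 3 of the genes that were put forward as early female markers of zebrafish (Danio rerio), and they are described here together over 6 fish. Each is 1 of the 13927 assembled transcripts in the expression table: kpna2 is MSTRG.3747.1, ipo4 is MSTRG.29865.1 and ccnb1 is MSTRG.7701.1. Transcripts carry no gene names in the table, so these 3 names rest on the values printed for each fish in the study's own heat map of female genes. No other transcript was within 5% of any of the 3 in all 6 fish. The closest other transcript differed by at most 1.12-fold in any fish from ipo4, 1.60-fold from kpna2 and 2.45-fold from ccnb1, and none of the 3 loci had another transcript in the table.

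Whole bodies of 2 adult males, 2 adult females and 2 fish of 28 dpf, called juveniles, were sequenced, 1 fish per library. No treatment was given, and all fish were obtained dead from the breeder after euthanasia with Tricaine. The labels give no strain, no age of the adults and no sex of the juveniles, whose columns are numbered 2 and 3. The study assumed from their gene expression that both juveniles were male, which was not tested here. In whole bodies, fewer cells of a type and less RNA per cell cannot be told apart.

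Proteins that are made in the cytoplasm and work in the nucleus are carried through the nuclear pores by import receptors of the karyopherin families. Kpna2 encodes an importin alpha, an adaptor that recognises nuclear localisation signals and hands the cargo to importin beta. Ipo4 encodes importin 4, a receptor of the importin beta family that binds its cargo directly, in human cells histones among others. Ccnb1 encodes cyclin B1, the regulatory partner of the kinase Cdk1 that drives cells from G2 into mitosis. Cyclin B1 with Cdk1 is also the maturation promoting factor of oocytes, and fish oocytes store its mRNA during growth and translate it at maturation.

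The values used here are normalised counts, made by the authors from read counts per transcript and a size factor for each fish (median of ratios). The table held between 13980849 and 18635087 reads per fish. It is a selection, since all 13927 transcripts have an adjusted p under 0.05 in the authors' own comparison. In 9528 transcripts the mean reached 100 normalised counts, and among these juvenile and female means lay within 1.5-fold of each other in 77, and juvenile and male means in 4368. Differences of the juveniles from the females are therefore described and not tested. Ipo4 was picked by the study from these libraries, so its difference between the adult sexes is not independent evidence of its direction. Kpna2 and ccnb1 entered the study from an earlier set of early female markers. The study cites the same earlier work for the comparison of its own sequenced fish, though it does not state outright that the set came from these libraries. The difference of kpna2 and ccnb1 between the adult sexes is therefore not taken as independent evidence either.

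Kpna2 was expressed at a high level in both adult females and at a low, clearly measurable level in the other 4 fish. Female 1 had 31502 normalised counts and female 2 had 36809. Male 1 had 1058 and male 2 had 1411, while juvenile 2 had 1614 and juvenile 3 had 1423. The lowest female was 19.5 times the highest of the other 4 fish, which was a juvenile. Both juveniles lay above both males, by a narrow margin. The 95% counting intervals of juvenile 3 (1353 to 1496 normalised counts) and male 2 (1346 to 1479) overlapped, so this order is not resolved.

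Ipo4 showed the same order of the adult sexes with a far smaller gap. It had 8417 normalised counts in female 1 and 7999 in female 2. Its level was 2121 in male 1, 1831 in male 2, 1700 in juvenile 2 and 1478 in juvenile 3. The groups did not overlap, and they fell from females to males to juveniles. The step from males to juveniles is not resolved, as the 95% counting intervals of juvenile 2 (1617 to 1785) and male 2 (1757 to 1907) overlapped. The share of all transcripts with this full order was not computed. The lowest female was 3.77 times the highest male.

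Ccnb1 had the largest gap of the 3. Female 1 had 53898 normalised counts and female 2 had 81366, so the females differed from each other by 1.51-fold. In the other fish ccnb1 had 860 in male 1, 649 in male 2, 658 in juvenile 2 and 627 in juvenile 3. The lowest female was 62.7 times the highest of these. Males and juveniles overlapped, with male 2 between the 2 juveniles.

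**Figure D1:**
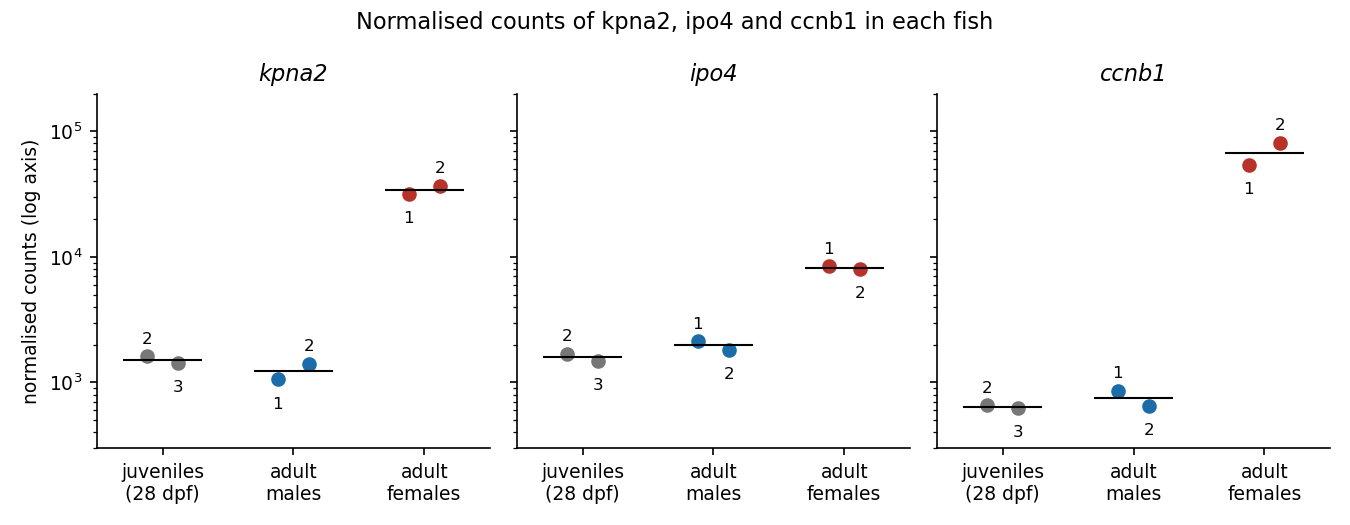
Normalised counts (log axis) of kpna2, ipo4 and ccnb1 in each fish, with the number of the fish beside its point and a line at each group mean. In all 3 panels both females lie above the other 4 fish, by at least 3.77-fold for ipo4, 19.5-fold for kpna2 and 62.7-fold for ccnb1; counts are not corrected for transcript length, so panels are not to be compared in level.

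All 3 transcripts had both females above the other 4 fish, an arrangement found in 45.5% of all transcripts in the table. Both females were above both males in 46.6% of them. It is the size of the gap that varied among the 3 genes. The female mean was 27.7 times the male mean for kpna2, 4.15 times for ipo4 and 89.6 times for ccnb1.

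Limma-trend was used to compare males with females on log2 (normalised count + 1) in 13748 transcripts, those that reached 10 normalised counts in 2 or more fish, and p-values were adjusted over all of them by the Benjamini-Hochberg method. All 3 genes were lower in males than in females at an adjusted p under 0.05, a call made for 40.5% of the transcripts tested. Kpna2 had a log2 fold change (males against females) of -4.80, with a 95% interval from -5.25 to -4.35 (adjusted p = 9.28e-05 from limma). Ipo4 had a log2 fold change of -2.06, with an interval from -2.42 to -1.70 (adjusted p = 0.000167 from limma). Ccnb1 had one of -6.47, with an interval from -7.05 to -5.89 (adjusted p = 9.06e-05 from limma). These 3 intervals did not overlap, and the 3 fits share the same fish and size factors.

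The calls of all 3 genes held under each of 16 alternatives, while the size of the ratios depended on the scaling. When size factors were estimated from the table itself, in 4 ways, the female to male ratio lay between 13.7 and 18.6 for kpna2, between 2.06 and 2.80 for ipo4 and between 44.2 and 60.2 for ccnb1. The order of the 3 genes was the same under each. Of all transcripts called between the adult sexes 33.2% were higher in males, against 53.2% to 65.9% with these other scalings.

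Females also exceeded juveniles in all 3 genes, as both females did in 56.5% of the transcripts of the table. Over the juvenile mean, the female mean was 22.5-fold higher for kpna2, 5.17-fold for ipo4 and 105-fold for ccnb1. The lowest female was 19.5, 4.71 and 81.9 times the highest juvenile for these genes in the same order. For kpna2 the gap was smaller against juveniles than against males, and for ipo4 and ccnb1 it was larger. This restates the ratio of juveniles to males, compared below, in which none of the 3 was called. With size factors from the total of the table it turned for kpna2, at 18.2-fold against juveniles and 15.8-fold against males.

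**Figure D2:**
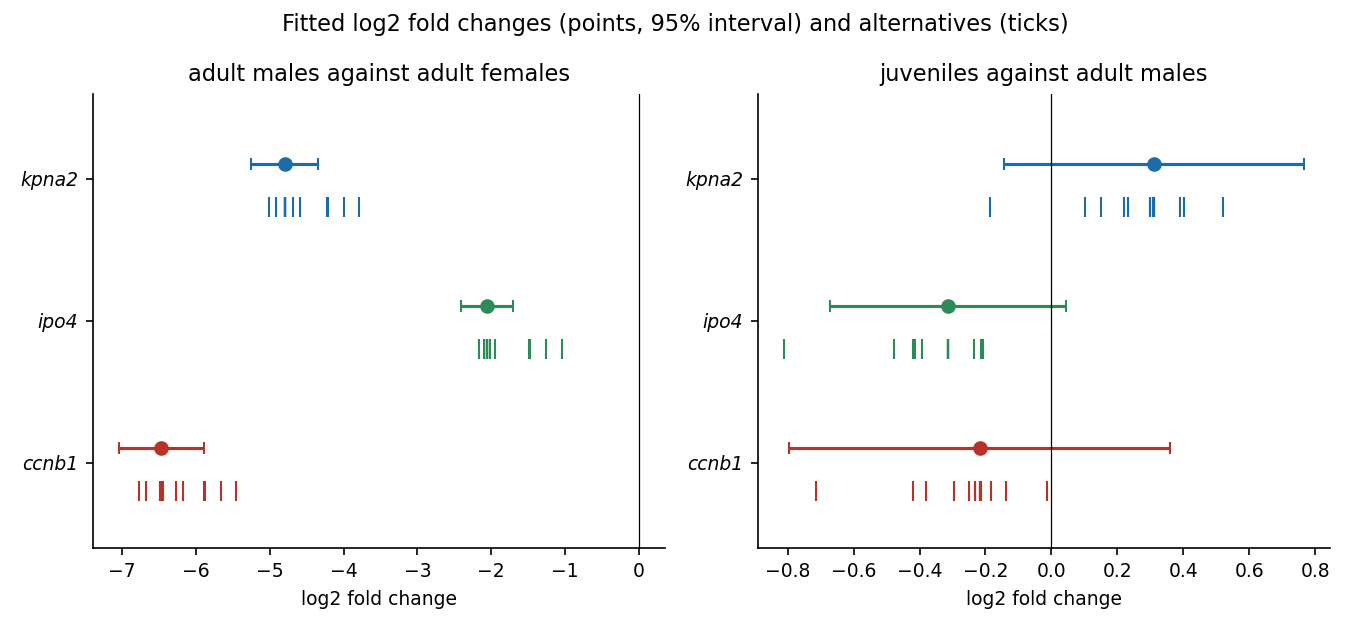
Log2 fold changes of kpna2, ipo4 and ccnb1 in adult males against adult females (left) and in juveniles against adult males (right), on separate axes; points are the limma-trend fit with its 95% interval and ticks are the alternatives. On the left no interval and no tick reaches 0, while on the right all 3 intervals cross 0.

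Juveniles were next compared with adult males, the comparison that says how the levels outside females relate to each other. None of the 3 genes passed the test, against 34.8% of all transcripts tested. At an unadjusted p under 0.05 the count was likewise 0 with limma, 0 with edgeR and 0 with DESeq2, against 47.2%, 46.5% and 47.2% of all transcripts. Kpna2 averaged 1519 ± 135 normalised counts in juveniles and 1234 ± 250 in males (SD, n = 2), a ratio of 1.23. Its log2 fold change in juveniles against males was 0.31, with an interval from -0.14 to 0.76 (adjusted p = 0.235 from limma). Both juveniles were above both males, as in 41.0% of all transcripts.

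For ipo4 the difference pointed the other way. Its mean was 1589 ± 157 normalised counts in juveniles and 1976 ± 205 in males (SD, n = 2), a ratio of 0.804. Both juveniles were below both males, as in 31.4% of all transcripts. The log2 fold change was -0.31, with an interval from -0.67 to 0.04 (adjusted p = 0.144 from limma). Ccnb1 had means of 643 ± 21.8 and 754 ± 149 (SD, n = 2), and here the groups overlapped. Its log2 fold change of -0.22 had an interval from -0.79 to 0.36 (adjusted p = 0.502 from limma). The bound farthest from 0 among these 3 intervals was -0.79.

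Scaling by table totals by itself lowers juveniles against males by 0.50 on the log2 scale. Under it ipo4 and ccnb1 were called lower in juveniles (log2 fold changes -0.81 and -0.71, adjusted p = 0.00762 and 0.0485 from limma) and the sign of kpna2 turned (-0.19, adjusted p = 0.401). Such calls were common with this scaling, as 5483 of 13732 transcripts were called and 4122 of these were lower in juveniles. None of the other 14 alternatives gave a call for any of the 3, with adjusted p between 0.0524 and 0.994. The unadjusted p from limma was under 0.05 for ipo4 with TMM (0.0188) and with upper quartile scaling (0.0422). It was so for 6612 of 13737 and 6550 of 13717 transcripts under these scalings. Without male 2 the log2 fold change was -0.42 for ipo4 and 0.52 for kpna2.

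The basal level outside females was taken as the mean of the male and the juvenile means. It was 1376 normalised counts for kpna2, 1782 for ipo4 and 699 for ccnb1. Among the 4 fish without female values the highest was 1.53, 1.44 and 1.37 times the lowest, so the basal level varied far less than it differed from the females. The female mean exceeded the basal level 24.8-fold for kpna2, 4.61-fold for ipo4 and 96.8-fold for ccnb1.

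The oocyte growth factors bmp15 (MSTRG.10580.1) and gdf9 (MSTRG.18441.1) had far lower basal levels than the 3 genes and a larger excess in females. Bmp15 had 5940 and 7429 normalised counts in females 1 and 2, and its highest value in the other 4 fish was 31.1, in male 1. Gdf9 had 3021 and 3705 in the females and at most 24.0 elsewhere, again in male 1. Their basal levels were 11.0 and 10.5 normalised counts, and the female mean exceeded these 606-fold and 319-fold. These basal levels rest on few reads per fish, 2 to 35 for bmp15 and 2 to 27 for gdf9, so both folds are imprecise. Zbp3 (MSTRG.1627.1), the other gene on the list of oocyte genes, had a basal level of 1586 and was 1.49 times higher in females than in males. Another transcript of the same locus, MSTRG.1627.2, had a basal level of 26.1 and a female to male ratio of 500. The values given for zbp3 are those of MSTRG.1627.1 alone and do not stand for the whole locus. Of 1950 transcripts with a mean of 100 or more, both females above the other fish and a female to male ratio of at least 4, a basal level of at least 500 was found in 22.7% and one under 50 in 21.2%. The limits of 500 and 50 were chosen after the values had been seen. A transcript with a basal level under 50 reaches a mean of 100 only through its females, so the filter shapes both shares. The same shares over the whole table were not computed. A female excess over a basal level of at least 500 was also shown by other named female genes of the study. The excess was 45.2-fold over a basal level of 519 for rdh10b, a retinol dehydrogenase gene, and 8.60-fold over 3609 for gyg1a, a glycogenin gene. It was 6.59-fold over 7073 for pdia and 4.28-fold over 9320 for ctsla, a cathepsin L gene. The basal level of pdia averaged unlike groups and lay near no single fish. Pdia had 13051 and 10579 normalised counts in males 1 and 2, but 2561 and 2103 in juveniles 2 and 3. Among the 4 fish without female values its highest was 6.21 times its lowest. This spread was 1.61-fold for rdh10b, 2.44-fold for gyg1a and 1.88-fold for ctsla.

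**Figure D3:**
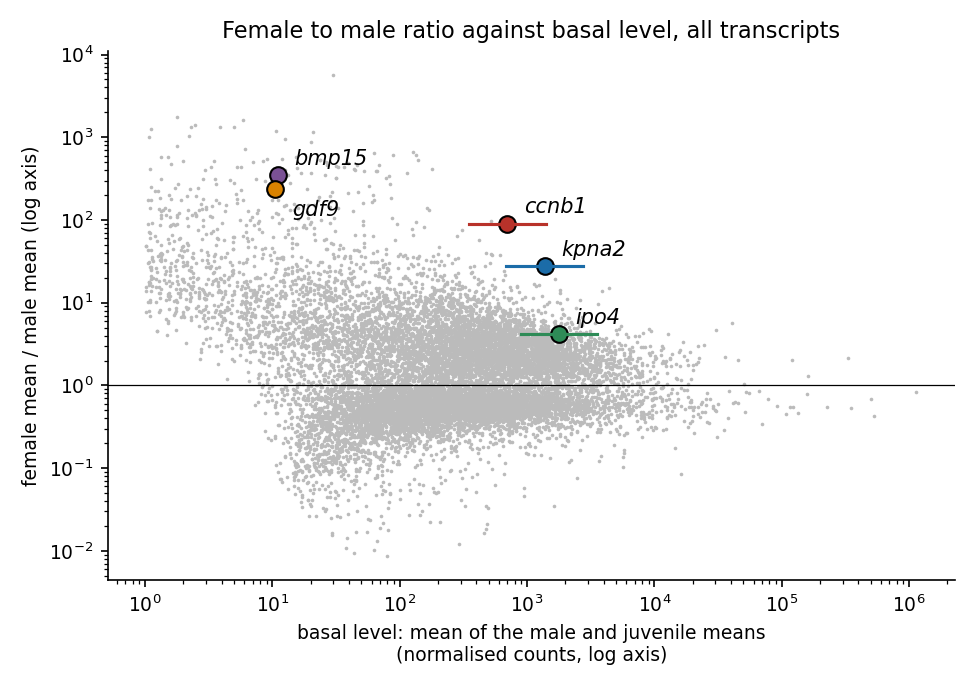
Female to male ratio against basal level (mean of the male and juvenile means, normalised counts), both on log axes, for the 13144 transcripts with a basal level of at least 1 and reads in both adult sexes (grey); bars mark the 2-fold window around kpna2, ipo4 and ccnb1. Ccnb1 and kpna2 lie at the upper edge of the transcripts at their basal level, ipo4 lies within the upper part, and bmp15 and gdf9 lie at far lower basal levels.

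Each gene was then ranked by its female to male ratio among the transcripts whose basal level was within 2-fold of its own. Ranks describe this table and carry no test. Kpna2 was number 2 of 2588 transcripts, which had a median ratio of 1.48. The transcript above it was ccnb1 itself, and the next one below had a ratio of 19.4. A ratio of at least 16 was reached by 6 of these transcripts.

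Ccnb1 was number 2 of 3600 transcripts, with a median ratio of 1.32. The one above it, which has no name in the table, had a ratio of 96.9, and the one below had 57.4. Ipo4 was number 176 of 2123 transcripts, with a median of 1.48. It was surrounded by others of nearly the same ratio (4.16 above and 4.14 below), and 194 of the 2123 had a ratio of at least 4. Ranked by the excess over the basal level in place of the ratio, kpna2 was number 3 of 2588, ipo4 number 130 of 2123 and ccnb1 number 1 of 3600.

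The ranks depended on what counts as similar abundance. When transcripts were matched on the mean of all 6 fish, which includes the females, kpna2 was number 29 of 334, ipo4 number 309 of 1448 and ccnb1 number 13 of 136. Matching in this way brings in transcripts that have few reads outside the females. The 3 windows also share transcripts, so the ranks are not independent of each other.

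The ratio of 2 transcripts within 1 fish does not depend on the size factors, and it was followed across the fish for each pair. Only its change between fish is read here, as the levels are not corrected for length. From males to females the log2 ratio of ccnb1 to ipo4 rose by 4.41, that of kpna2 to ipo4 by 2.74 and that of ccnb1 to kpna2 by 1.67. These changes restate the differences between the log2 fold changes of the genes, and any 1 of them follows from the other 2. Females and males did not overlap in any of the 3 ratios, which is therefore no separate result. The share of all transcript pairs without overlap was not computed. With 2 fish against 2, an exact two-sided permutation test cannot give a p below 0.333, and this was its value for each of these ratios (adjusted 0.400 over 6 comparisons).

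Between juveniles and males the ratio of kpna2 to ipo4 restates the opposite order of the values in these genes, which fixes its direction. In each of these genes the counting intervals of a juvenile and a male overlapped, so neither order is resolved. Its log2 value was -0.07 in juvenile 2 and -0.05 in juvenile 3, against -1.004 in male 1 and -0.38 in male 2. The juveniles were higher by 0.63, or 1.54-fold, and the exact permutation p was 0.333, the smallest possible. Without male 1 the difference was 0.31, and without male 2 it was 0.94. The log2 ratio of ccnb1 to kpna2 was lower in juveniles than in males, with a difference of -0.53 and no overlap (exact permutation p = 0.333). The gap was only 0.06, between juvenile 3 at -1.18 and male 2 at -1.12. The difference was -0.12 without male 1 and -0.94 without male 2. Here too the share of all transcript pairs without overlap was not computed. For ccnb1 to ipo4 the difference was 0.10 and the groups overlapped (exact permutation p = 0.667). These 3 comparisons were added after the values had been seen.

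**Figure D4:**
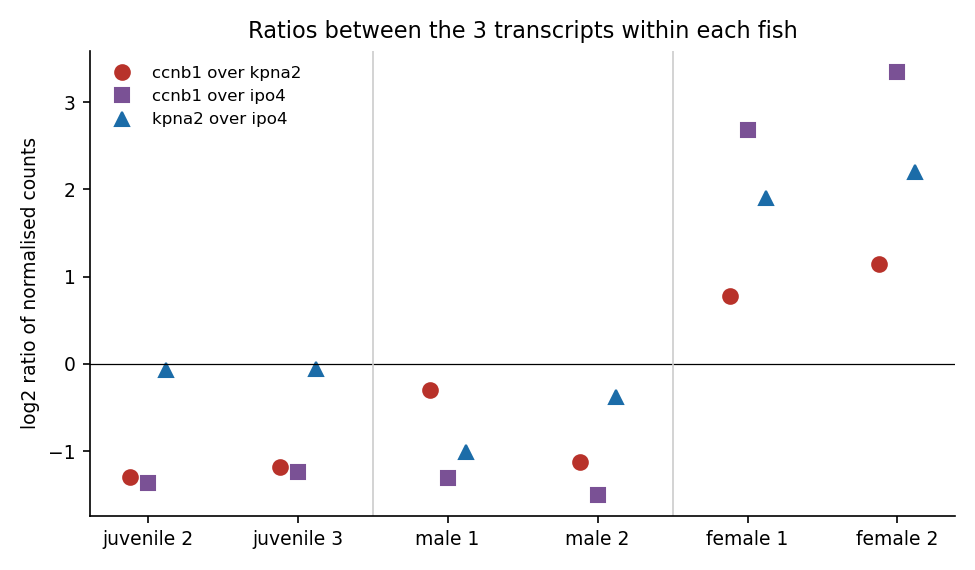
Log2 ratios between the normalised counts of ccnb1, kpna2 and ipo4 within each of the 6 fish. All 3 ratios are higher in both females than in any other fish, and among the other 4 fish male 1 has the lowest ratio of kpna2 to ipo4 (-1.004) and the highest ratio of ccnb1 to kpna2 (-0.30).

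The fish of a group differed from each other by amounts that were common in the table for most groups of the 3 genes. In males the coefficient of variation was 20.3% for kpna2, 10.4% for ipo4 and 19.8% for ccnb1. Among transcripts whose male mean was within 2-fold of that of the gene, 73.7%, 49.2% and 70.3% had a smaller gap between the males. The juveniles varied by 8.87% in kpna2, 9.86% in ipo4 and 3.38% in ccnb1, and 50.7%, 56.1% and 17.8% of similar transcripts had a smaller gap. In females the variation was 11.0%, 3.60% and 28.7%, with a smaller gap in 68.6%, 29.4% and 92.6% of similar transcripts, which for ccnb1 numbered 54. Counting error of a single fish was at most 4.01% in any of the 3 genes.

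Among the adults the 3 genes did not all vary in the same direction. Juvenile 3 was at 0.882 of the level of juvenile 2 for kpna2, 0.870 for ipo4 and 0.953 for ccnb1. For ccnb1 the 95% counting intervals of the 2 juveniles overlapped (607 to 712 and 581 to 677 normalised counts), so its direction is not resolved. Transcripts of similar juvenile mean had median ratios of 0.994, 0.994 and 1.01 for the 3 genes in this order. Kpna2 was higher in male 2 than in male 1 by 1.33-fold, while ipo4 and ccnb1 were lower in male 2, at 0.863 and 0.754 of the level in male 1. Of the 3 oocyte genes, bmp15 and gdf9 were lower in male 2, from 35 reads to 9 and from 27 reads to 5. Zbp3, read on MSTRG.1627.1 alone, was higher, from 1767 reads to 2359. Female 2 exceeded female 1 by 1.51-fold in ccnb1 and 1.17-fold in kpna2, while ipo4 was at 0.950. All 3 oocyte genes were higher in female 2, by 1.25-fold for bmp15, 1.23-fold for gdf9 and 1.12-fold for zbp3 (MSTRG.1627.1 alone). Higher values in female 2 were common in the table. Transcripts with a female mean within 2-fold of that of kpna2, ipo4 and ccnb1 had median ratios of 1.08, 1.06 and 1.09. The part of oocyte RNA in these differences was not tested.

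The transcripts with the most similar profiles were sought among those with 100 or more normalised counts on average. Likeness was the root mean square difference, over the 6 fish, of log2 values centred on the mean of each transcript. For ipo4 the closest was MSTRG.27014.1 at 0.06, with a female to male ratio of 4.28, and 501 of 9527 transcripts lay within 0.25. For kpna2 the closest was MSTRG.4048.1 at 0.19, with a ratio of 24.7, and 8 lay within 0.25. Ccnb1 had 3 transcripts within 0.25, the closest at 0.23. Within this distance, profiles like that of ipo4 were common in the table and those like kpna2 or ccnb1 were few. The distance is in log2 units and large female to male ratios were rare. These counts therefore follow in part from the size of the ratios and are no separate result.

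Among the named female genes of the study with such a mean, rdh10b had the profile closest to both kpna2 (0.55) and ccnb1 (0.54). It had 22451 and 24520 normalised counts in the females, 631 and 590 in the males and 466 and 391 in juveniles 2 and 3. Ctsla was the closest of the named genes to ipo4 (0.40). Among all 9527 transcripts compared, rdh10b was only number 165 for kpna2 and number 21 for ccnb1, and ctsla number 1488 for ipo4. Kpna2 and ccnb1 were 0.97 apart, kpna2 and ipo4 1.19, and ipo4 and ccnb1 2.07.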

How the data were processed

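RNA-seq libraries of 6 whole zebrafish were used. Per the labels, the authors mapped reads to GRCz11 with HISAT2 2.1.0, assembled transcripts with StringTie 1.3.4 and counted with featureCounts 1.6.3. They normalised with DESeq2, for which the Galaxy version is given as 2.11.40.2. The deposited signal values are read counts over a size factor of each fish (median of ratios). They were whole reads within 0.01 in 100% of cases, and 3 reads are 2.40 to 4.23 normalised counts in 1 fish. The deposited fold changes, Wald statistics and p-values of the authors were not used, except to see that all adjusted p are under 0.05. How reads shared by paralogs or opposite strands were counted is not given in the sources used here.

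Groups were compared with limma-trend (limma 3.58.1, R 4.3.3) with 6 fish in 3 groups and a pseudocount of 1. Alternatives were 4 scalings, a pseudocount of 10, no filter, edgeR 4.0.16 and DESeq2 1.42.0 on recovered reads, only the groups compared, a replicate block and each fish left out. The fits were also run on simulated counts with a single fixed dispersion and no differences between juveniles and males. These data are not so simple, so that run does not gauge the calls made here. Tables were handled in Python 3.11.15 with scipy 1.17.1, numpy 2.4.6 and pandas 2.3.3. The members, gene names and lists were chosen with earlier results of these data known. Other genes of nuclear import or the cell cycle could not be looked up by name, and no sequences were used. The genes named were kpna2, ipo4 and ccnb1, the oocyte genes bmp15, gdf9 and zbp3, and the transcripts of most similar profile. Rdh10b, gyg1a, pdia and ctsla were named as other female genes of the study.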

Additional observations from a re-analysis of the deposited data

How the results depend on the processing

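The limits are 2 fish a group, a table selected on the authors' comparison, and size factors that cannot be estimated well on such a table. Relative to the authors' size factors, those estimated on the table raised males against females by 0.59 (median of ratios), 0.57 (TMM), 1.01 (upper quartile) and 0.80 (total of the table) on the log2 scale, and moved juveniles against males by 0.08, -0.16, -0.08 and -0.50.

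In males against females the log2 fold changes ranged from -5.01 to -3.79 for kpna2, from -2.16 to -1.04 for ipo4 and from -6.77 to -5.46 for ccnb1 over the 16 alternatives, and the adjusted p was at most 0.00235. In juveniles against males, scaling to the total of the table gave -0.19 for kpna2, -0.81 for ipo4 and -0.71 for ccnb1. Leaving out 1 fish gave 0.10 to 0.52, -0.42 to -0.21 and -0.42 to -0.01.

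With the median of ratios, TMM, upper quartile and total of the table in this order, the female excess of kpna2 was 16.02, 17.7, 12.6 and 16.9, that of ipo4 2.995, 3.26, 2.34 and 3.03, and that of ccnb1 62.6, 68.3, 48.9 and 63.7. The female to juvenile ratio of kpna2 was 14.2, 16.9, 11.7 and 18.2, that of ipo4 3.26, 3.89, 2.71 and 4.19, and that of ccnb1 66.1 (median of ratios) and 54.7 (upper quartile). With upper quartile scaling the basal level was 1720.05 normalised counts for kpna2, 2239 for ipo4 and 877 for ccnb1, while scaling to the table total gave 2095 for ipo4 and 818 for ccnb1.

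The share of similar transcripts with a lower female to male ratio was 99.9% for kpna2, 91.7% for ipo4 and 99.97% for ccnb1. Matched on the mean of all 6 fish it was 91.6%, 78.5% and 91.1%, and with a 4-fold window 89.4% for ipo4. Leaving out 1 fish gave 90.2% to 93.3% for ipo4 and 99.9% to 100% for ccnb1.

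The count of transcripts lower in males was 5564, and 3201 with upper quartile scaling. The count called between juveniles and males was 4789, and 1736 to 4891 with 1 fish left out (1736 without juvenile 3, 2388 without juvenile 2, 2853 without male 1). Of these calls 53.5% were higher in juveniles, and 24.8% with the total of the table.

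The correlation of same-numbered deviations of females and males was -0.04 across 9528 transcripts. Only a single difference per sex entered it, so it cannot show whether the replicate numbers mark a pair or a batch. With the replicate number as a block the log2 fold changes in males against females stayed at -4.80, -2.06 and -6.47 (adjusted p = 0.000965, 0.00156 and 0.000965 from limma), and 5304 transcripts were lower in males.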
